A study of Mus musculus with 6 samples.

Results

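Collagens, laminins and integrins were followed in a MAX-deficient mouse lung tumour line with and without MAX restored. The members are the 87 genes of the authors' annotation of 24391 whose symbol is that of a collagen chain (44), a laminin chain (11), an integrin alpha chain (18) or an integrin beta chain (8), together with Fn1, Nid1, Nid2, Hspg2, Agrn and Sparc. The rule takes them by name, not by their values, though the set was chosen with earlier results of these data known. RNA was sequenced from mRPMaxKO, a line grown from an RPMax-/- lung tumour, with 129/SvJ and C57BL/6 given as strain. In this mouse model of small cell lung cancer Rb1 and Trp53 are lost together with Max. The groups were 3 libraries with MAX restored and 3 control libraries. Both came from this line, below passage 20, as a polyclonal population that had taken up a doxycycline-inducible lentiviral vector and survived puromycin, and the protocol gives 4 days of doxycycline. The control cells thus share the loss of Rb1, Trp53 and Max with the cells in which MAX was put back. The labels do not say which promoter or insert the control vector had, or whether the controls were given doxycycline, so the groups may differ in more than MAX. Nor is it given whether the 3 libraries of either group were separate cultures. The p-values therefore reflect only the spread among these libraries, and that spread may be technical.

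The extracellular matrix around epithelial cells has a basement membrane at its core, a sheet built on laminin and type IV collagen and tied together by nidogen, perlecan and agrin. Laminins are assembled in the cell from an alpha, a beta and a gamma chain, and collagens from 3 chains wound into a triple helix. Integrins are receptors made of an alpha and a beta chain, and the pairing sets which matrix protein is bound: alpha 3 and alpha 6 with beta 1 bind laminin, and alpha v with several beta chains binds the RGD motif of fibronectin and vitronectin. Small cell lung cancer cells often grow in suspension or as loose clusters, and their attachment to laminin through beta 1 integrins has been studied for its link to drug resistance.

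Depth was similar, with 10253303 to 11925909 counts in the MAX restored libraries and 10046899 to 10425210 in the controls. Max, the restored gene, had 15979, 14933 and 13369 counts in the MAX restored libraries, against 639, 691 and 620 counts in the controls, a fold change of 20.9 (adjusted p = 1.68e-24). Control 1 stood apart from the other controls: the chi-square per degree of freedom over genes was 8.91 and 10.2 in its 2 pairs, against 1.5 between control 2 and control 3 and 1.24 to 1.46 among MAX restored libraries. Reads of Rn45s, the ribosomal RNA precursor, took 0.996% of counts in control 1, against 0.121% to 0.160% in MAX restored libraries and 0.109% to 0.187% in the other controls. Rn45s is among the genes of the chi-square, so these values do not stand only for a spread over many genes. Its part in the chi-square and in the results was not tested. Neuroendocrine genes that mark small cell lung cancer were abundant in every library, with Chga, Chgb, Syp, Ncam1, Insm1, Calca and Uchl1 summing to between 6813 and 7019 CPM (counts scaled to the same library total, TMM-adjusted) in the MAX restored libraries and between 5820 and 6065 CPM in the controls.

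Most of these matrix and adhesion genes were silent or nearly so. Of the 87, 34 had enough reads to be tested and 53 did not. Of the 53, 5 had no count in any library (Col4a5, Col6a4, Lama3, Lamc3 and Itga8), 29 had between 1 and 9 counts over all 6 libraries, and none had more than 47. Among the 34 tested, 19 were higher and 7 lower with MAX restored, and 8 did not pass the threshold (adjusted p under 0.05 over all 12664 genes tested). The 26 called are 76.5% of the tested members, where 63.5% of all tested genes were called. The higher calls made up 55.9% of tested members against 31.2% of all tested genes, and the lower calls 20.6% against 32.3%. The median log2 fold change was 0.30 over the tested members and -0.0036 over all genes. Without control 1, 16 members were higher and 8 lower. At a change of 2-fold or more, 5 members were higher (Hspg2, Itgb4, Col7a1, Col6a1 and Col5a3) and 3 lower (Col26a1, Col9a2 and Itgb6), where 6.15% and 2.38% of all tested genes were. A gene enters the test with about 10 counts in 3 libraries. Hspg2, Itgb4 and Col5a3 stayed under 10 counts in each control library, and Col26a1 and Itgb6 in each MAX restored library. These 5 thus entered through 1 group only, and their change helped to bring them into the count. Col6a1, with 5 counts in control 1, and Col7a1, with 9 in control 3, also lacked 3 such controls. They too needed the MAX restored group to enter, so their rise helped as well. In 26 of the 34, no MAX restored library fell within the range of the controls or the reverse, against 67.1% of all tested genes.

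**Figure D1:**
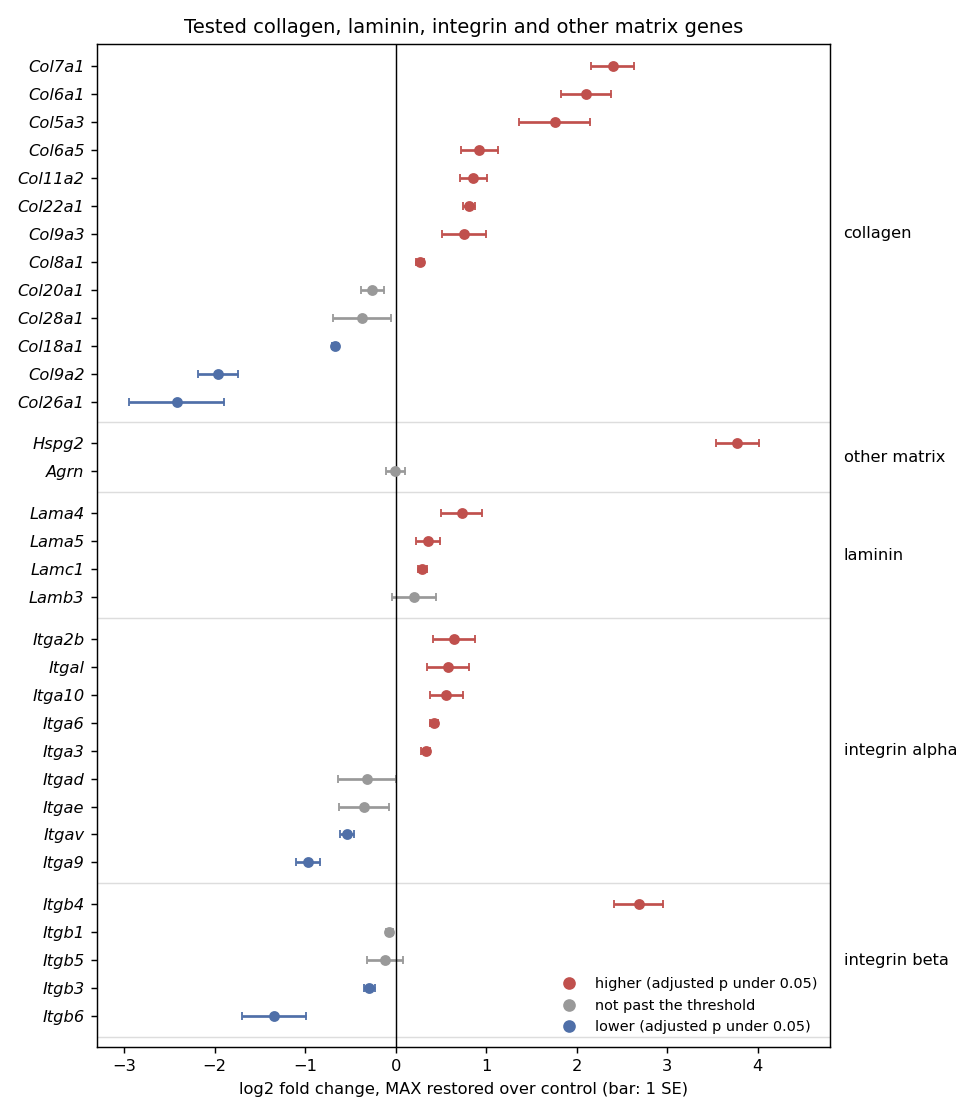
Log2 fold change of the tested members reported here, MAX restored over control, with 1 standard error. Red points are higher, blue points lower and grey points did not pass an adjusted p of 0.05. Hspg2 lies farthest to the right at 3.78 and Col26a1 farthest to the left at -2.42, and the laminin chains shown lie right of 0, although Lamb3 did not pass.

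Per length, the abundant members were few. Levels are compared between genes as RPKM, which divides CPM by the exon length in kb, computed from the counts and the exon lengths in the files. Only 12 of the 87 averaged at least 1 RPKM in both groups. Itgb1, the beta chain shared by most matrix-binding integrins, was the highest with 206 ± 1.57 RPKM in MAX restored libraries and 216 ± 13.8 RPKM in controls (SD, n = 3 each). Col18a1 and Col8a1 followed, then the laminin receptor chains Itga3 and Itga6 and, further down, the laminin chain Lamc1. Among collagens a few genes held nearly all of the signal. Col18a1, Col8a1 and Col22a1 made up 94.9% ± 0.132 of the summed collagen RPKM in MAX restored libraries and 95.8% ± 0.426 in controls (SD, n = 3 each).

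**Figure D2:**
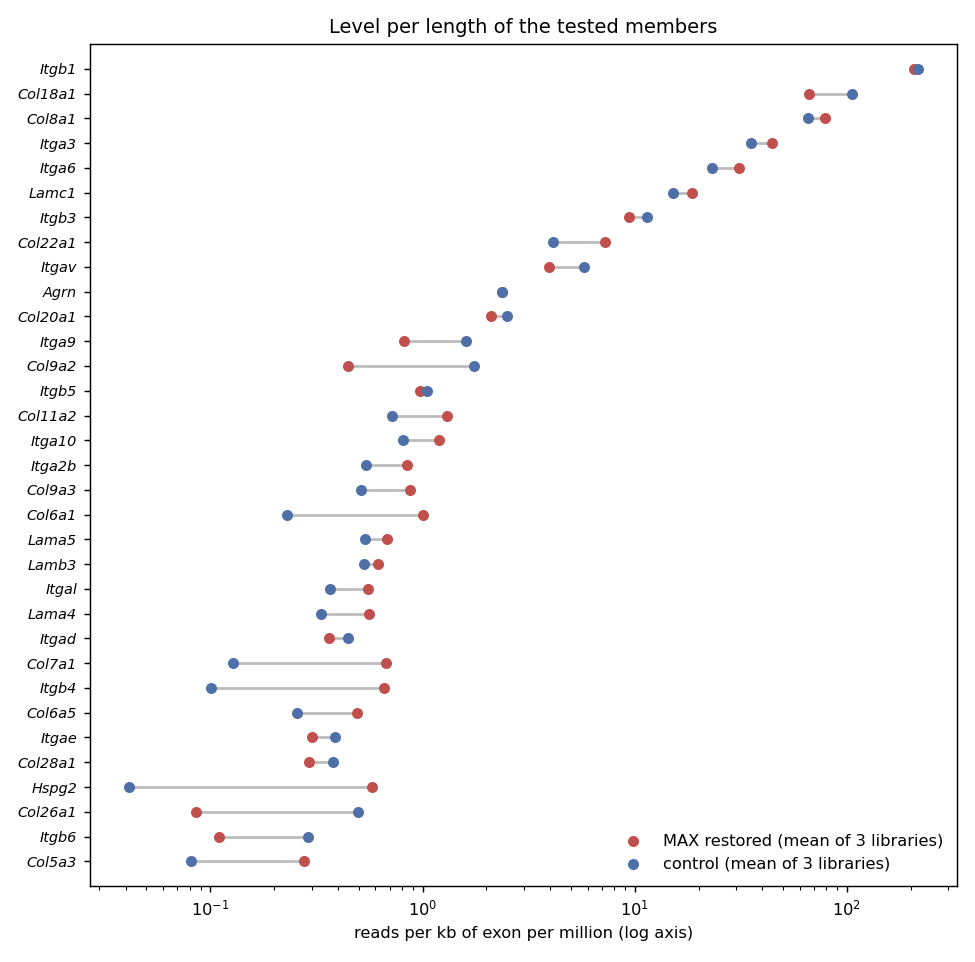
Mean level in RPKM of the tested members reported here, on a log axis, with 1 red point for the MAX restored mean and 1 blue point for the control mean (n = 3 libraries each), joined by a line. The top members, from Itgb1 down to Agrn, shifted little on this scale, and the long lines of Hspg2, Col7a1, Itgb4, Col6a1, Col9a2 and Col26a1 lie among the low members.

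Promoter sequence was looked at because MYC and MAX bind E-boxes, of which CACGTG reads the same on both strands. RefSeq windows of the 250 bases before the start site (GRCm38.p6, another build than the counts) were found for 62 of the 87 members. None of the 62 holds CACGTG, which occurs in 6.86% of 27025 genes with a window and in 10.1% of the 9671 of them that were tested. The wider E-box CANNTG, which includes CACGTG, occurs in 15 of the 22 tested members with a window and in 61.4% of tested genes, and the GC box GGGCGG, on either strand, in 13 of 22 and 65.1%. The windows of Hspg2 and Col7a1, the members with a window that rose most, and of Itgb1, the most abundant member, follow 5′ to 3′ on the plus strand, at chr4:137468553-137468802, chr9:108953336-108953585 and chr8:128685404-128685653. Capitals mark GC boxes, and none of these windows holds an E-box of either form.
Hspg2: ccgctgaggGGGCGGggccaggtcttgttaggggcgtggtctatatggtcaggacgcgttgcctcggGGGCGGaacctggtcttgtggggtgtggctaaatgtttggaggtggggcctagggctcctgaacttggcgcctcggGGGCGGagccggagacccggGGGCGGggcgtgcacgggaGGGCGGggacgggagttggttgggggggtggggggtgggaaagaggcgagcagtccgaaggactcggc
Col7a1: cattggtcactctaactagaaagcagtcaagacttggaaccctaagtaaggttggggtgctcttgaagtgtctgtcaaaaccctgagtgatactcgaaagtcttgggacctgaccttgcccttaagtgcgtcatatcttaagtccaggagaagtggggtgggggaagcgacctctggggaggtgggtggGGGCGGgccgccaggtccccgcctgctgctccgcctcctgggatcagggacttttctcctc
Itgb1: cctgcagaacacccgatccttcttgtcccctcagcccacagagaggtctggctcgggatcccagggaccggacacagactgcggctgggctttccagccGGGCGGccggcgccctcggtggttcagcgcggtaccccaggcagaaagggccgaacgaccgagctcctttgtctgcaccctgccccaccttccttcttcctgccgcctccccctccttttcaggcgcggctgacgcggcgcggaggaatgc
The Hspg2 window holds 5 GC boxes and the other windows 1 each. That a motif is not in these windows says only that these letters are not there.

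A pair of collagens dominated and moved in opposite directions. Col18a1 encodes type XVIII collagen, a basement membrane proteoglycan whose C-terminal fragment is endostatin, and lies on chromosome 10 of mm9 from 76514924 to 76629275. It had 386, 381 and 386 CPM in MAX restored libraries, against 609, 624 and 604 CPM in controls. It fell 1.59-fold, with no overlap between the groups (log2 -0.67, SE 0.03, adjusted p = 5.56e-13). Col8a1, a short-chain network collagen best known from blood vessel walls and the corneal endothelium, had 413, 402 and 396 CPM in MAX restored libraries, against 362, 323 and 319 CPM in controls. It rose 1.21-fold (log2 0.27, SE 0.04, adjusted p = 2.06e-05). Every MAX restored library lay above every control, although control 1 came closest to them. Of the summed collagen RPKM, Col18a1 thus held 41.2% ± 0.531 in MAX restored libraries against 57.8% ± 1.36 in controls, and Col8a1 49.1% ± 0.502 against 35.8% ± 1.88 (SD, n = 3 each), so that Col18a1 led in the controls and Col8a1 in the MAX restored libraries. Col22a1, a collagen of tissue junctions, had 42.9, 46.1 and 44.0 CPM in MAX restored libraries and 24.3, 24.9 and 26.5 CPM in controls. It rose 1.75-fold (log2 0.81, SE 0.07, adjusted p = 2.79e-09).

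The largest collagen changes among tested members were in genes with few reads, though not every low collagen changed. Col7a1, the anchoring fibril collagen that fastens the basement membrane of stratified epithelia to the tissue below, had 92, 57 and 59 counts in MAX restored libraries, against 14, 13 and 9 counts in controls. It rose 5.27-fold (log2 2.40, SE 0.24, adjusted p = 4.71e-08). Col6a1 had 40, 47 and 45 counts in MAX restored libraries and 5, 13 and 10 in controls, a rise of 4.30-fold (log2 2.10, SE 0.27, adjusted p = 1.51e-06). Type VI collagen is built from an alpha 1 and an alpha 2 chain with alpha 3 or a relative of it, and the classical partners were almost unread, with 2 counts for Col6a2 and 1 for Col6a3 in the MAX restored libraries together and 2 for each in the controls. Col6a5, which can take the place of alpha 3, had 52, 48 and 51 counts in MAX restored libraries and 18, 29 and 26 in controls (log2 0.93, SE 0.20, adjusted p = 0.000491). Col5a3, a chain of the fibril-regulating type V collagen, had 22, 17 and 17 counts in MAX restored libraries against 3, 3 and 9 in controls (log2 1.76, SE 0.39, adjusted p = 0.000638). Its size depends on control 3, without which the log2 value was 2.48.

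Among cartilage-type collagens the chains of type IX moved apart. Col9a2 had 16, 15 and 10 counts in MAX restored libraries, against 44, 57 and 47 counts in controls, and fell 3.90-fold (log2 -1.96, SE 0.22, adjusted p = 2.48e-07). Col9a3 rose 1.69-fold (adjusted p = 0.0106) with 32, 27 and 24 counts in MAX restored libraries and 17, 15 and 13 in controls, and Col9a1 had 3 and 2 counts in all. The Col9a3 call was lost in DESeq2 (adjusted p = 0.0690; 0.00864 to 0.0690 over all alternatives), and 8.05% of its exon bases overlap those of Tcfl5 on the opposite strand, which counting without strand cannot separate. Col11a2 had 92, 86 and 67 counts in MAX restored libraries and 38, 45 and 41 in controls, a rise of 1.81-fold (adjusted p = 5.91e-05). Col26a1 had 4, 4 and 0 counts in MAX restored libraries, against 12, 11 and 18 in controls. Its ratio of MAX restored to control, on summed counts scaled by library size, was 0.180, with a 95% exact binomial interval of 0.0727 to 0.388 that covers counting error only (fitted log2 -2.42, SE 0.52, adjusted p = 0.000446). Col20a1 (log2 -0.26, adjusted p = 0.0774) and Col28a1 (log2 -0.37, adjusted p = 0.319) did not pass, and Col20a1 passed as lower without control 1 (log2 -0.35, adjusted p = 0.0140; 0.0140 to 0.271 over all alternatives).

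The collagens that make up most connective tissue were below the count filter in both groups. Col1a1, the main chain of type I collagen, had 5 counts over the 3 MAX restored libraries and 9 over the 3 controls, Col1a2 had 1 and 6, and Col3a1 had 8 and 7. Of the 11 fibrillar collagen genes only Col5a3 and Col11a2 were tested. None of the 6 type IV genes of the basement membrane was tested. The divergent pair Col4a1 and Col4a2 had 6 and 19 counts over the MAX restored libraries and 3 and 9 over the controls, the pair Col4a3 and Col4a4 had 2 and 6 against 1 and 4, and of the pair on chromosome X Col4a6 had 3 counts against none. The 4 transmembrane collagens, among them Col17a1 of the hemidesmosome, had at most 5 counts in any library. These depths cannot show whether such genes changed. Of the other collagens below the filter, Col12a1, a fibril-associated chain, had 1, 7 and 7 counts in MAX restored libraries against 1, 1 and 0 in controls, a ratio of 6.90 with a 95% counting interval of 1.6 to 62.2, and it passed as higher with the filter removed (adjusted p = 0.0148). Col2a1 of cartilage had 20 counts over the MAX restored libraries and 19 over the controls, Col16a1 had 11 and 2, Col5a1 had 13 and 3 and Col14a1 had 4 and 13.

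Basement membrane linkers split widely. Hspg2, which encodes perlecan, the heparan sulphate proteoglycan that ties laminin to collagen IV, had the largest rise of all 34 tested members. It had 104, 81 and 88 counts in MAX restored libraries, against 4, 6 and 8 counts in controls, or 8.19 ± 0.837 CPM against 0.587 ± 0.200 CPM (SD, n = 3 each). The fitted rise was 13.7-fold (log2 3.78, SE 0.24, adjusted p = 5.53e-11), and the ratio of summed counts, scaled by library size as are all such ratios here, was 14.0 (95% counting interval 8.66 to 23.9). Hspg2 lies in distal chromosome 4 of mm9, from 137024718 to 137126545, where neighbouring genes were also higher: of the 50 nearest tested genes 38 rose and 4 fell, with a median log2 fold change of 0.38. Agrn, which encodes agrin, another proteoglycan of basement membranes and the organiser of the neuromuscular synapse, lies further along chromosome 4 among neighbours with a median of 0.34. It had 199, 216 and 168 counts in MAX restored libraries and 152, 203 and 183 in controls, and the groups overlapped at 17.5 ± 1.57 CPM in MAX restored libraries and 17.5 ± 2.31 CPM in controls (log2 -0.0044, SE 0.11, adjusted p = 0.973). Whether position on chromosome 4 plays a part in the Hspg2 value was not tested.

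The other 4 genes added by name were near the floor. Fn1, which encodes fibronectin, had 1, 1 and 1 counts in MAX restored libraries, against 3, 7 and 2 counts in controls, a ratio of 0.230 (95% counting interval 0.0416 to 0.852). The nidogen genes Nid1 and Nid2 had 6 and 4 counts over the MAX restored libraries and 6 and 3 over the controls, and Sparc, a collagen-binding matricellular protein, had 4 in each group. With the count filter removed, Fn1 did not pass (adjusted p = 0.0602).

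**Figure D3:**
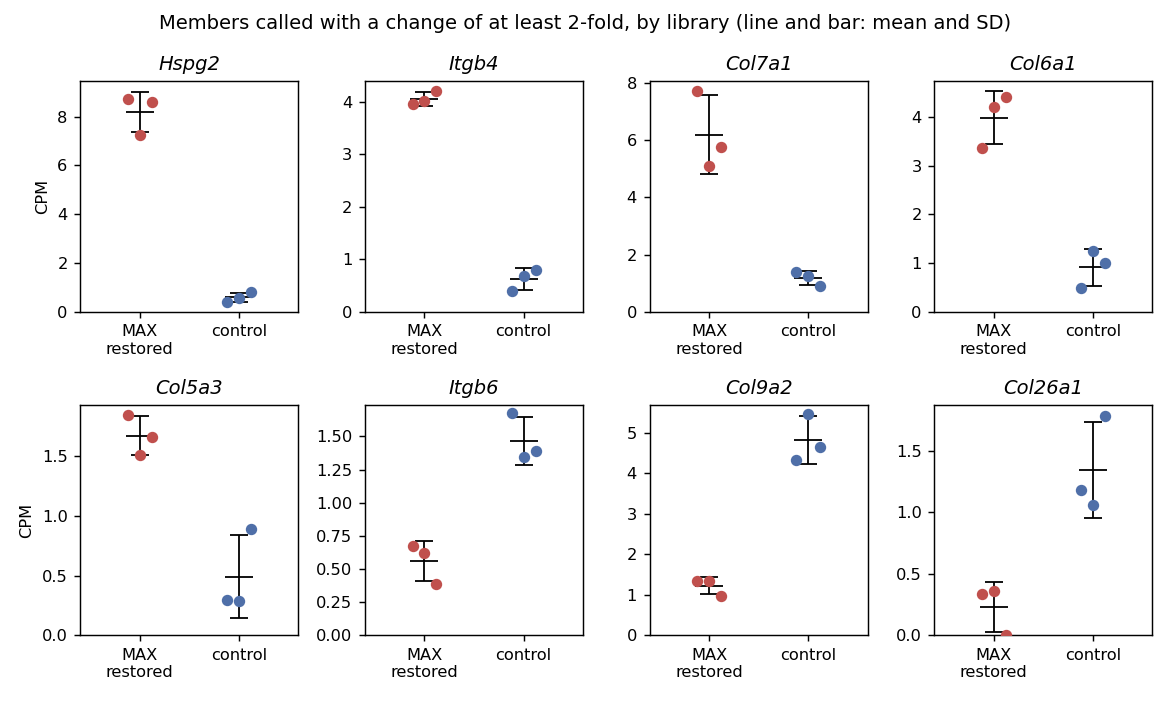
CPM in each library of the 8 members called with a change of at least 2-fold, with the group mean and SD (n = 3 libraries each), MAX restored left of control in each panel. The groups do not overlap in any panel, and the axes run only to a few CPM, so that Hspg2 reaches 8.74 CPM in its highest library.

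The laminin genes that rose did so by small amounts and were unequal in level. Lamc1, the gamma chain of most laminins, had 139, 144 and 141 CPM in MAX restored libraries, against 107, 118 and 121 CPM in controls (1.23-fold, log2 0.29, SE 0.05, adjusted p = 4.81e-05). The lowest MAX restored library lay above the highest control. Lama5, the alpha chain of the main adult epithelial laminins, had 99, 84 and 76 counts in MAX restored libraries and 65, 58 and 63 in controls (log2 0.36, SE 0.14, adjusted p = 0.0278). Lama4, a chain of vascular and neural laminins, rose 1.66-fold (adjusted p = 0.00852) with 42, 31 and 39 counts against 19, 26 and 17. The Lama5 call was lost in DESeq2, without control 2 and without MAX restored 1 (adjusted p 0.0156 to 0.114 over all alternatives). Lamb3, the beta chain of laminin-332, did not pass (log2 0.20, SE 0.25, adjusted p = 0.493).

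Lamc1 far outweighed the laminin alpha and beta chains. It had 18.5 ± 0.292 RPKM in MAX restored libraries and 15.1 ± 0.921 RPKM in controls (SD, n = 3 each). All alpha chains summed to 1.24 ± 0.112 RPKM in MAX restored libraries and 0.880 ± 0.0463 RPKM in controls, and all beta chains to 0.878 ± 0.147 RPKM in MAX restored libraries and 0.651 ± 0.159 RPKM in controls. Lama3, the alpha chain that laminin-332 needs, had no count in any library. Of the beta chains below the filter, Lamb1 had 20 counts over the MAX restored libraries and 15 over the controls, and Lamb2 had 10, 14 and 5 counts in MAX restored libraries against 1, 2 and 3 in controls. Lamb2 passed as higher when the filter was removed (adjusted p = 0.00163). These sums depend on the exon models and lengths of the annotation and say nothing of protein.

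**Figure D4:**
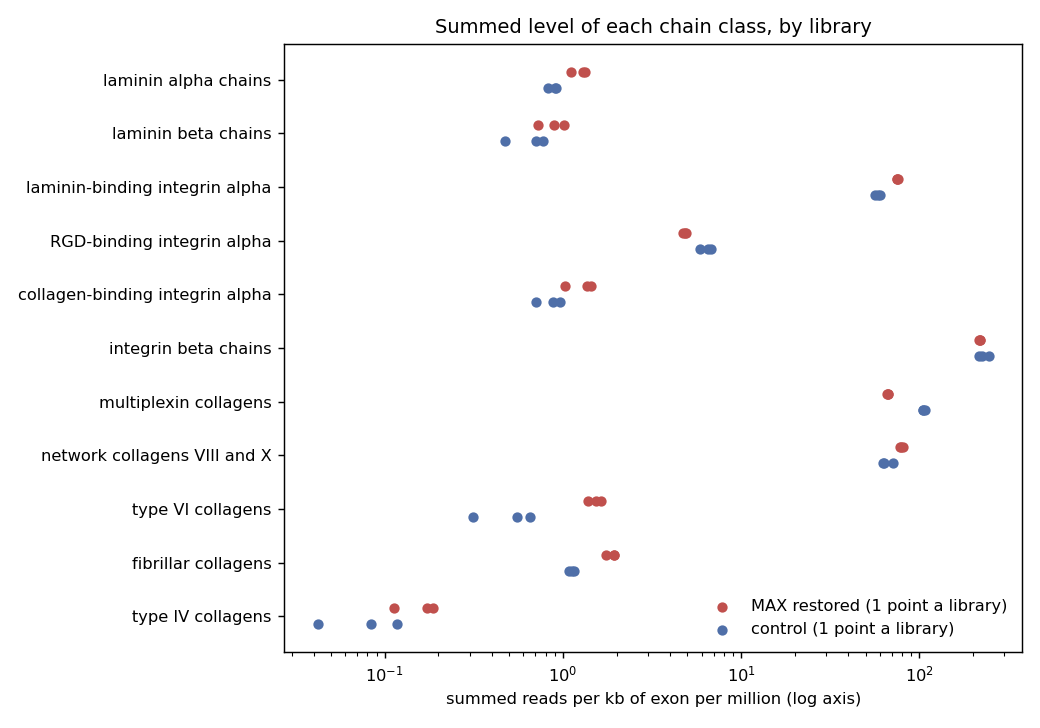
Summed RPKM of the chains of several kinds on a log axis, 1 point for each library, MAX restored in red above control in blue. Laminin alpha and beta chains lie near 1 RPKM in both groups, and type IV collagens lie below 0.2 RPKM in every library.

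Among integrins the laminin-binding alpha chains Itga3 and Itga6 rose, while Itgav and its partners Itgb3 and Itgb6 fell. Itga3 had 232, 234 and 232 CPM in MAX restored libraries, against 171, 196 and 187 CPM in controls (1.26-fold, log2 0.33, SE 0.05, adjusted p = 5.59e-06). Itga6 had 187, 182 and 191 CPM in MAX restored libraries, against 145, 135 and 139 CPM in controls (1.34-fold, log2 0.42, SE 0.05, adjusted p = 1.66e-07). Neither overlapped between groups, and together with Itga7, which had 8 counts over the MAX restored libraries and 10 over the controls, they summed to 75.3 ± 0.637 RPKM in MAX restored libraries against 58.4 ± 1.56 RPKM in controls (SD, n = 3 each). Their common partner Itgb1, on chromosome 8 of mm9 from 131209554 to 131257479, had 866, 857 and 870 CPM in MAX restored libraries and 972, 859 and 891 CPM in controls. The groups overlapped and it did not pass (log2 -0.07, SE 0.04, adjusted p = 0.123). Without control 2 it passed as slightly lower (log2 -0.11, adjusted p = 0.0206; 0.0206 to 0.558 over all alternatives).

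Itgb4, the beta chain that pairs only with alpha 6 and anchors hemidesmosomes to keratin filaments, rose most among the tested integrins. It lies on chromosome 11 of mm9 from 115836039 to 115869725 and had 47, 45 and 43 counts in MAX restored libraries, against 4, 7 and 8 counts in controls. The fitted rise was 6.44-fold (log2 2.69, SE 0.27, adjusted p = 4.87e-08), and the ratio of summed counts, scaled by library size, was 6.54 (95% counting interval 4.03 to 11.2). Even so its level, 0.657 ± 0.0212 RPKM in MAX restored libraries and 0.100 ± 0.0331 RPKM in controls, remained far below the 31.0 and 23.1 RPKM of its partner Itga6.

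Itgav, the alpha chain of the RGD-binding vitronectin receptors and of activators of latent TGF-beta, had 346, 292 and 292 counts in MAX restored libraries, against 447, 388 and 408 in controls, or 27.9 ± 1.61 CPM against 40.5 ± 3.42 CPM (SD, n = 3 each). It fell 1.45-fold without overlap (log2 -0.54, SE 0.07, adjusted p = 3.24e-06). Its partner Itgb3 had 55.3, 55.3 and 51.8 CPM in MAX restored libraries against 71.5, 64.1 and 63.1 CPM in controls (1.22-fold lower, log2 -0.29, SE 0.06, adjusted p = 0.000207). Itgb6, the epithelial partner of alpha v, had 8, 7 and 4 counts in MAX restored libraries against 17, 14 and 14 in controls (log2 -1.35, SE 0.35, adjusted p = 0.00248). Itgb5, a further partner, had 2.94, 2.77 and 3.91 CPM in MAX restored libraries and 3.74, 3.36 and 3.27 CPM in controls and did not pass (log2 -0.12, SE 0.20, adjusted p = 0.618). Itgb8, another alpha v partner, had 8, 1 and 8 counts in MAX restored libraries against 1, 0 and 0 in controls. The ratio was 15.6, with a 95% counting interval of 2.45 to 654. Itgb8 was too low for the filter and passed as higher without it (adjusted p = 0.00166), so not every partner of alpha v went the same way. Itga5, the classical fibronectin receptor chain, had 6 counts over the MAX restored libraries and 14 over the controls and was not tested.

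The remaining integrin alpha chains were low. Itga9, which binds tenascin C and osteopontin, had 6.05, 6.07 and 5.28 CPM in MAX restored libraries, against 11.2, 12.6 and 10.4 CPM in controls, and fell 1.96-fold (log2 -0.97, SE 0.13, adjusted p = 2.01e-06). Its relative Itga4 had 24 counts over the MAX restored libraries and 23 over the controls. Itga10, a collagen receptor chain of cartilage, rose 1.47-fold (adjusted p = 0.0117), and the other collagen-binding chains Itga1, Itga2 and Itga11 had 1, 2 and 10 counts over the MAX restored libraries and 1, 2 and 3 over the controls. Itga2b, the platelet alpha chain that pairs with beta 3, rose 1.56-fold (adjusted p = 0.0221). The leukocyte chain Itgal rose 1.49-fold (adjusted p = 0.0360), with a mean of 2.88 ± 0.184 CPM in MAX restored libraries and 1.92 ± 0.478 CPM in controls (SD, n = 3 each). All 3 calls depend on single libraries. Itga10 lost its call without control 1 or MAX restored 2, Itga2b without control 1, control 2 or MAX restored 2, and Itgal without control 1, MAX restored 1 or MAX restored 3, and DESeq2 called neither Itga2b nor Itgal (highest adjusted p over all alternatives 0.0660, 0.101 and 0.196). Itgad (log2 -0.32, adjusted p = 0.400) and Itgae (log2 -0.35, adjusted p = 0.282) did not pass, and the leukocyte beta chains that Itgal, Itgad and Itgae pair with, Itgb2 and Itgb7, had 0 and 6 counts over the MAX restored libraries and 2 and 3 over the controls.

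Markers of cells that make much matrix were scarce, though some were higher with MAX restored. In bulk RNA, a change in the number of cells of a kind and a change in RNA per cell cannot be told apart. Of 8 fibroblast and smooth muscle markers 2 were tested and both rose, Pdgfrb and Tagln, and the 8 summed to between 6.22 and 6.96 CPM in MAX restored libraries and between 4.04 and 4.56 CPM in controls. Tagln made up most of these sums, with a mean of 4.01 CPM in MAX restored libraries and 2.58 CPM in controls. Pdgfrb had 14, 22 and 25 counts in MAX restored libraries and 3, 3 and 10 in controls. It needed the MAX restored group to enter the test, so its rise helped. Pdgfra and Thy1 each had 12 counts over the MAX restored libraries and 15 over the controls. Lum had no count in any library, and Dcn had 3 counts over the MAX restored libraries and 1 over the controls. Of 8 endothelial markers only Erg was tested and it rose. The endothelial markers summed to between 6.72 and 7.52 CPM in MAX restored libraries and between 2.36 and 2.97 CPM in controls. Erg made up most of these sums, with 178 counts over the MAX restored libraries and 46 over the controls. In the same order, Pecam1 had 32 and 10 counts, Tek 22 and 22, Kdr 2 and 1 and Emcn 3 and 0. Cdh5, Cldn5 and Tie1 had no count. Neither of the 2 leukocyte and platelet markers tested, Lyz2 and Cd68, passed, with sums between 2.69 and 3.62 CPM in MAX restored libraries and between 1.49 and 2.88 CPM in controls, and Cd3e and Pf4 had no count. The part of other cells in the matrix gene values was not tested.

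Genes that process collagen moved both ways. Of 28 such genes 16 were tested, of which 5 were higher and 7 lower (75% called, against 63.5% of all tested genes, median log2 -0.06). Lox, the lysyl oxidase that cross-links collagen and elastin, had 7.31, 7.58 and 7.13 CPM in MAX restored libraries, against 23.8, 27.3 and 24.7 CPM in controls, and fell 3.44-fold (log2 -1.78, SE 0.10, adjusted p = 1.08e-11). Bmp1, the procollagen C-proteinase, rose 1.44-fold to 298 ± 8.23 CPM in MAX restored libraries, against 207 ± 9.13 CPM in controls (SD, n = 3 each). Its relative Tll1 rose 4.74-fold, with 53 counts over the MAX restored libraries and 10 over the controls. Tll1, with 5, 4 and 1 counts in the controls, entered the test through the MAX restored group only, so its rise helped. Pcolce, also among the 5 higher, had 8 counts in control 1 and likewise needed the MAX restored group. Loxl4, among the 7 lower, had 7, 7 and 3 counts in MAX restored libraries and entered through the controls only. The lysyl hydroxylase gene Plod1 rose 1.39-fold. It lies among chromosome 4 neighbours of which 43 of 50 were higher, with a median log2 of 0.49. Whether position plays a part in the Plod1 value was not tested. Plod2 fell 1.66-fold and the prolyl hydroxylase genes P4ha2 and P4ha1 also fell (log2 -0.58 and -0.35). These 3 genes were named after their values were seen. Serpinh1, the collagen chaperone HSP47, had 7 counts over the MAX restored libraries and 4 over the controls.

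Genes of integrin adaptors and focal adhesions, with tetraspanins and kinases among them, were more often higher than lower. Of 29 integrin adaptor and focal adhesion genes 27 were tested, with 14 higher, 4 lower (66.7% called, close to the 63.5% of all tested genes) and a median log2 of 0.17. The tetraspanin gene Cd81 rose 4.10-fold, to 189 ± 4.41 CPM in MAX restored libraries against 46.0 ± 1.11 CPM in controls (SD, n = 3 each; log2 2.04, SE 0.05, adjusted p = 3.49e-17). Bcar1, which encodes the adaptor p130Cas, rose 1.71-fold and Flna, which encodes the actin cross-linker filamin A, 1.74-fold. Tns1 fell 4.86-fold, with 0.929 ± 0.111 CPM in MAX restored libraries against 4.56 ± 0.439 CPM in controls, Parvb fell 4.99-fold and the kinase gene Fyn 1.21-fold. The Parvb value depends on MAX restored 1, without which its log2 fold change was -3.02 instead of -2.32. Parvb had 5 and 2 counts in MAX restored 2 and 3, and Tns1 had 9 in MAX restored 2. Both needed the control group to enter the test, so their fall helped to bring them into the count. The focal adhesion kinase gene Ptk2, the integrin-linked kinase gene Ilk and the paxillin gene Pxn, named after their values were seen, did not pass (log2 -0.07, 0.01 and -0.01).

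Other matrix receptors were nearly all called in the main results, though fewer were under some alternatives. Of 19 genes 13 were tested, with 8 higher, 4 lower (92.3% called, against 63.5% of all tested genes) and a median log2 of 0.25. DESeq2 called 9 of the 13 in either direction, and 10 or 11 were called when single libraries were left out. Calls over all 12664 genes also fell in DESeq2, to 3444 higher and 3576 lower from 3948 and 4092. They fell too when single libraries were left out, except without control 1. The lower calls of this list numbered 2 in DESeq2, without control 3 and without MAX restored 2. The heparan sulphate syndecan gene Sdc3 had 55.8, 60.4 and 59.2 CPM in MAX restored libraries, against 15.3, 18.1 and 16.5 CPM in controls, and rose 3.51-fold (log2 1.81, SE 0.07, adjusted p = 4.23e-14). Dag1, which encodes the laminin receptor dystroglycan, rose slightly, 1.29-fold, and Bcam, another laminin receptor gene, 1.19-fold. Sdc4, the syndecan of focal adhesions, fell 1.21-fold, Robo1 1.16-fold and the sarcoglycan gene Sgce 1.11-fold, though the Sgce call was lost in DESeq2 and without MAX restored 2, MAX restored 3 or control 3.

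Matrix proteases were listed together with their inhibitors and the urokinase receptor. Of these 24 genes 13 were tested, with 7 higher and 1 lower (61.5% called, against 63.5% of all tested genes, median log2 0.37). The inhibitor gene Timp2 was among the 7 that rose (log2 0.37). The membrane-bound metalloproteinase gene Mmp15 rose 2.74-fold, to 83.1 ± 6.85 CPM in MAX restored libraries against 30.4 ± 1.26 CPM in controls (SD, n = 3 each; log2 1.46, SE 0.07, adjusted p = 2.67e-13), and Mmp17 rose 2.05-fold. Plat, the tissue plasminogen activator, had 5.55, 6.07 and 6.25 CPM in MAX restored libraries, against 0.591, 0.479 and 0.198 CPM in controls, and rose 13.7-fold (log2 3.77, SE 0.28, adjusted p = 4.68e-10). The controls had 6, 5 and 2 counts of Plat, which thus entered the test through the MAX restored group only. Its rise helped to bring it into the count. Plaur, the receptor of urokinase, was the 1 that fell, 2.24-fold, with 2.52, 2.85 and 2.74 CPM in MAX restored libraries against 6.21, 4.99 and 7.03 CPM in controls. Without control 2 or control 3, 2 genes of the list were lower.

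**Figure D5:**
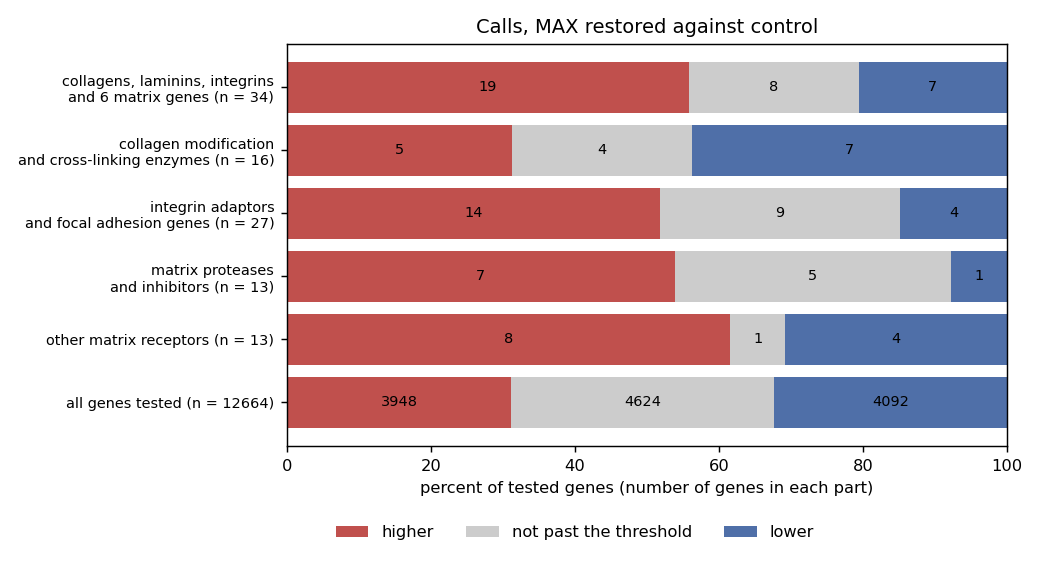
Percent of tested genes that were higher (red), not past the threshold (grey) or lower (blue) with MAX restored, with the number of genes printed in each part. Higher calls outnumber lower calls 19 to 7 among the members and 14 to 4 among adaptor and focal adhesion genes. Collagen processing genes split 5 to 7 and all tested genes 3948 to 4092.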

How the data were processed

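The data are RNA-seq of 3 MAX restored and 3 control libraries, made from 500 ng of total RNA each, per the labels' protocols, with the Ultra RNA kit of New England BioLabs, which as sold keeps no strand information. Tools named in the submitters' processing notes are STAR 2.5.2a, Subread 1.6.0 and bcl2fastq 1.8.4, with mm9 as the build. Each deposited file gives raw counts by gene symbol, and per the file headers the authors counted them with featureCounts 1.6.0 over UCSC mm9 exons without strand and without the options that would count multi-mapping reads or reads shared by genes. Reads in shared exons or near-identical copies can thus be missing.

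Groups came from the labels. edgeR 4.0.16 in R 4.3.3 was run on all genes: filterByExpr with a minimum count of 10 kept 12664 of 24391, counts were scaled by TMM, and a two-sided quasi-likelihood test on group was adjusted by Benjamini-Hochberg over all genes tested, with a threshold of 0.05. Each SE was taken as the size of the coefficient divided by the root of its F statistic. CPM and RPKM use TMM-scaled library sizes. The common biological coefficient of variation was 4.28%. All changes are relative to the other genes, and intervals cover counting error only, since reads carry no molecular identifiers. The script was tested on simulated counts. Alternatives were DESeq2 1.42.0, limma 3.58.1 (voom), RLE and upper-quartile scaling, 2 other filters, a stricter threshold, a replicate block and the omission of single libraries. All 6 libraries entered the main results.

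The genes named are the 20 members with the smallest p, the 3 highest per family, the 6 genes added by name and their partner chains, and in each related list the 3 with the smallest p and up to 3 that moved the other way. Others are named where a count was small. Values of 1 member and 1 marker are not reported here, though counts over all tested members include that member. Members and lists were chosen with earlier results of these data known. List symbols were matched to the files through RefSeq synonyms where they differed.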

Additional observations from a re-analysis of the deposited data

How the results depend on the processing

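Of the 34 tested members, 27 stayed on the same side of the threshold under every alternative in which they could be tested, 5 lost their call under at least 1 (Col9a3, Itga2b, Itgal, Lama5 and Itga10) and 2 gained one (Col20a1 and Itgb1). None changed direction while called. The number of members higher ranged from 16 to 19 when libraries were left out singly and the number lower from 7 to 8. A minimum count of 50 left 18 members in the test, of which 11 were higher and 4 lower, against 3681 and 3648 of 11079 genes. Without the count filter 82 could be tested, with 22 higher and 7 lower, and Lamb2, Itgb8 and Col12a1 were added. Over all genes 18279 were then tested, with 4133 higher and 4260 lower. In that setting the share called in either direction was lower among members than over all genes. The share called higher was still larger among members. DESeq2 called 15 members higher and 7 lower, against 3444 and 3576 of all 12664 genes, and a threshold of 0.01 left 14 and 7 members. The total called in each of the 4 related lists stayed within 1.5 times throughout, but small counts in 1 direction moved. Collagen processing genes higher numbered 8 without the filter and 2 at a minimum count of 50 (5 in the main results). Adaptor and focal adhesion genes lower numbered 2 at a minimum count of 50 (4). Genes of the protease and inhibitor list lower numbered 2 without control 2 or control 3 (1). Other receptors lower numbered 2 in DESeq2, without control 3 or without MAX restored 2 (4). Deviations of same-numbered libraries correlated at 0.0035, 0.035 and -0.024, and those of unlike-numbered libraries at -0.069 to 0.063. These values show no pairing by replicate number, but with 3 libraries a group they cannot exclude one. With the replicate number as a block the counts were again 19 higher and 7 lower, and no member's call changed. Upper-quartile scaling gave 4244 higher and 3799 lower over all genes, and still 19 and 7 among members. Depth limits the 53 untested members, whose median was 5 counts over 6 libraries.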
